A study of Mus musculus with 15 samples.

Results

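The inhibitors of DNA binding (Id) are a family of 4 helix-loop-helix proteins encoded by Id1, Id2, Id3 and Id4. All 8 probe sets whose gene symbol is one of these were taken from the 22690 probe sets of a mouse microarray, that is 4 of the 12393 genes that probe sets with a single symbol represent. Id1 and Id3 have 1 probe set each, and Id2 and Id4 have 3 each. The choice was made by symbol. The 8 probe sets all passed the filter on low values.

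The cells were neural stem cells from the subventricular zone of 6-month-old female C57Bl6/J mice, grown as neurospheres and used at passages 5 to 7. Undifferentiated cells (5 arrays) were kept in growth factors. Cells were differentiated for 12 h (5 arrays) or 24 h (5 arrays) on poly-D-lysine in 5% serum with the growth factors withdrawn, so serum, substrate, loss of growth factors and time cannot be told apart. Each array measured total RNA with biotin-labelled cRNA. The labels do not say whether arrays of a group came from separate cultures or animals, so p-values here refer to differences among these arrays, part of which may be technical.

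Id proteins lack the basic region that touches DNA. They bind E proteins, the common partners of basic helix-loop-helix (bHLH) factors, and so keep proneural and other tissue-specific bHLH factors from forming active dimers. Bone morphogenetic proteins (BMPs) induce Id genes through receptor-activated Smads. In the nervous system Id1 and Id3 are known from stem cells and from astrocytes, Id2 and Id4 from progenitors and from the control of oligodendrocyte and neuronal timing.

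The promoters of the family are shown first because the BMP pathway is described later beside the genes' changes. They are the 250 bases before the transcription start, from RefSeq on build GRCm38.p6, for the 3 genes of 4 in that table, with Id1 not in it. Capitals mark every match, on either strand, to GGCGCC, a GC-rich element that BMP Smads bind, and to CAGAC, a Smad-binding element.
Id2, chr12:25096093-25096342, minus strand: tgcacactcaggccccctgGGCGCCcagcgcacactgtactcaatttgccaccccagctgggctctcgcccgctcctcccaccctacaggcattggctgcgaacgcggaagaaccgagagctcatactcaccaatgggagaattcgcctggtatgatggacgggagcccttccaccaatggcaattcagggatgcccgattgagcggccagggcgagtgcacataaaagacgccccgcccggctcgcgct
Id3, chr4:136143572-136143821, plus strand: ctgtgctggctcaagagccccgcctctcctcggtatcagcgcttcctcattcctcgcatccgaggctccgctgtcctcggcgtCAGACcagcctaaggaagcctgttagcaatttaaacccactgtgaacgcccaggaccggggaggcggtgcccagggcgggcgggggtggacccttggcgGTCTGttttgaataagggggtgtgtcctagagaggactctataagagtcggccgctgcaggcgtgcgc
Id4, chr13:48260866-48261115, plus strand: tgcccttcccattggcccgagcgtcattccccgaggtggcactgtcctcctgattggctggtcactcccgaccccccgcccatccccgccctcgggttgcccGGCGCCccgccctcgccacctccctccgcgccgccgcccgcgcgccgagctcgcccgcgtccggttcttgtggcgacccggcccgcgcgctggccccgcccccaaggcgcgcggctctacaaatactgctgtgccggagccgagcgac
GGCGCC occurred 1 time in Id2, 231 bases before the start, and 1 time in Id4, 148 bases before it, and was not in the Id3 window. Of 32851 promoter windows of the same length in the table, 9.59% held it. CAGAC occurred 2 times in Id3, 167 and 68 bases before the start, and was in neither of the other windows, against 42.2% of all windows. The E-box CANNTG, bound by bHLH dimers, occurred 1 time in Id2, 196 bases before the start, and in 66.2% of all windows. The cyclic AMP response element TGACGTCA (1.55% of all windows) and the Egr1 element GCGGGGGCG (2.57%) were in none of the 3. Motifs were counted on both strands, overlaps included, and a match is a description of the letters only.

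Features of the arrays bear on these values. The code in the title of 13 of the 15 arrays differed from the code in their deposited file name, and for 8 of them the file code would give another group. Titles were used throughout, and grouped by file codes 0 of 7909 tested genes, and so 0 Id genes, passed the limma test at 12 h or at 24 h (81 and 118 genes, 0 of them Id genes, at an unadjusted p under 0.05). The 3'/5' signal ratio of actin, a measure of RNA integrity, was 1.63 to 2.22 in undifferentiated cells, 2.21 to 2.59 at 12 h and 2.23 to 3.21 at 24 h. With that ratio as a covariate 0 Id genes passed at either time (Id4 differed by 2.32 on the log2 scale at 12 h, adjusted p = 0.0525, and by 3.28 at 24 h, adjusted p = 0.0579), and its part in the results was not tested. Over all 7909 genes 59 passed at 12 h and 13 at 24 h with that covariate, against 622 and 2536 without it, and at an unadjusted p under 0.05 there were 2 Id genes at 12 h and 1 at 24 h. The 12 h replicate 1 stood apart for Id1, Id3 and Id2 probe set 1435176_a_at, and results that rest on it are given with and without it. It did not meet the criterion for an array far from the others that is used at the end. By file code it would be an undifferentiated array. So would 12 h replicate 4 and 24 h replicate 3, which read above all arrays titled undifferentiated for these genes. Whether any label is wrong was not tested. The 12 h replicates 3 and 4 were the closest arrays of the set, with an SD of their log2 differences of 0.150 against 0.277 for the next closest pair, 24 h replicates 2 and 3.

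Values are log2, converted from deposited log10 MAS5 values, and are relative to each probe set, so that changes but not levels are compared between genes. Where a gene has several probe sets, the one of highest mean level represents it. A gene passed when its Benjamini-Hochberg adjusted p from limma, fitted on all 7909 genes whose mean log2 value exceeded the filter level of 0.51, was under 0.05. At 12 h 2 of the 4 Id genes rose (Id3 and Id4) and at 24 h 3 of 4 (Id2, Id3 and Id4), while 3.3% of the tested genes rose at 12 h and 12.7% at 24 h. Without 12 h replicate 1 all 4 rose at 12 h, beside 241 of 7910 genes, and all 4 at 24 h, beside 1107. That array was singled out by its own Id values. Calls gained by leaving it out, here and below, are therefore descriptions and not separate support. Without 12 h replicate 2 instead, 1 Id gene rose at 12 h, beside 68 of 7904 genes. The median difference of the 4 genes was 1.69 at 12 h and 1.78 at 24 h, beside 0.00445 and -0.060 over all tested genes. In this bulk RNA, a change in the number of cells of a type and a change in RNA per cell cannot be told apart.

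**Figure D1:**
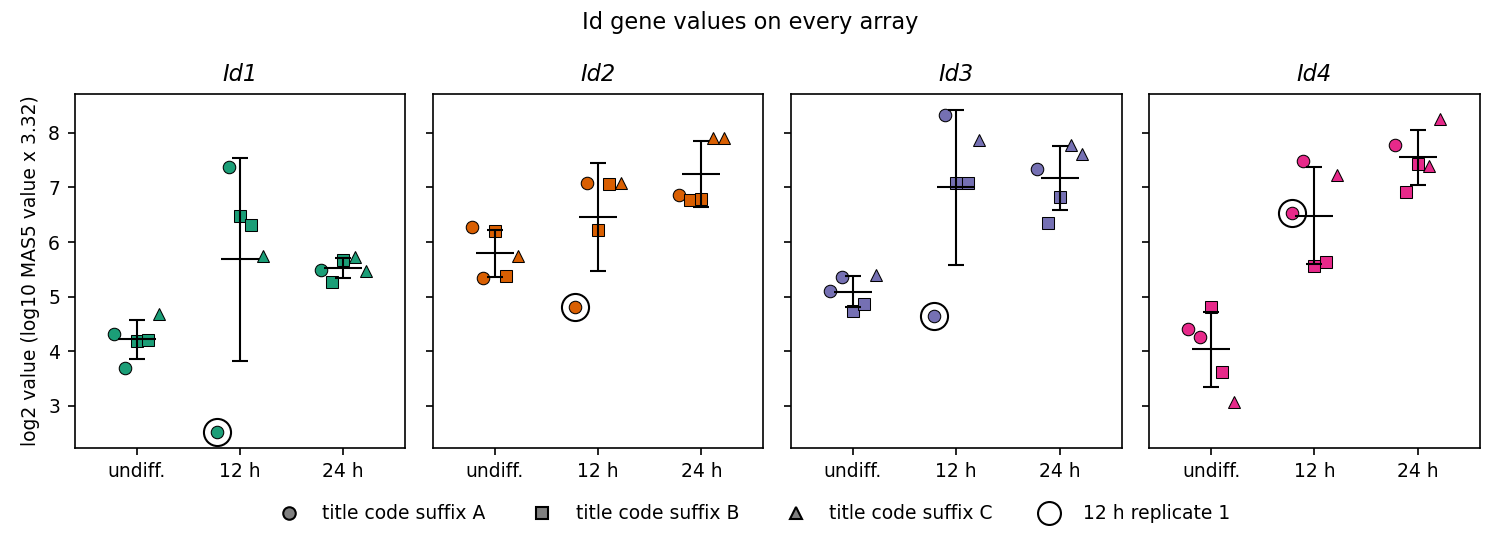
Log2 values of the 4 Id genes on each of the 15 arrays in undifferentiated cells and at 12 h and 24 h, with the group mean and SD in black and the title code suffix as the symbol. The heights of different genes are not comparable. At 24 h every array lies above every undifferentiated array for each gene, as for 9.04% of all tested genes. The ringed 12 h replicate 1 lies below all undifferentiated arrays for Id1, Id2 and Id3 and among the other 12 h arrays for Id4.

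Id4 made the largest change of the family at 12 h and at 24 h over the 15 arrays grouped by title. It restrains bHLH factors in neural progenitors. In undifferentiated cells the 5 arrays read 4.40, 4.26, 4.80, 3.62 and 3.07, at 12 h they read 6.54, 7.48, 5.55, 5.63 and 7.23, and at 24 h they read 7.78, 6.91, 7.43, 7.40 and 8.25. Every 12 h array was above every undifferentiated array, as for 3.41% of the tested genes, and so was every 24 h array, as for 9.04%. The group means were 4.03 ± 0.68 in undifferentiated cells, 6.49 ± 0.89 at 12 h and 7.55 ± 0.50 at 24 h (SD, n = 5 each). Id4 rose 5.48-fold at 12 h (2.45 ± 0.39 SE, limma adjusted p = 0.00408) and 11.5-fold at 24 h (3.52 ± 0.39, adjusted p = 6.97e-05). Among the 7909 genes this was the rise of rank 4 at 12 h and of rank 2 at 24 h. None of the 18 comparisons between paralogs described below passed after adjustment over all arrays. Without 12 h replicate 1 the 12 h difference was 2.44 for Id4 and 2.503 for Id3. Grouped by file codes, Id4 differed by less than Id1 and Id3 at both times.

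Between the differentiated times Id4 was 1.07 ± 0.39 higher at 24 h than at 12 h (limma adjusted p = 0.204, unadjusted p = 0.0153), and the arrays overlapped. The 95% interval of that difference ran from 0.23 to 1.90. For comparison, 0.0632% of the tested genes passed as higher at 24 h than at 12 h.

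The 3 Id4 probe sets moved alike. At 12 h 1423259_at, 1423260_at and 1450928_at rose by 2.45, 2.16 and 2.16, and at 24 h by 3.52, 3.09 and 3.33. All 3 passed at both times with no overlap with the undifferentiated arrays. Over all tested probe sets 2.45% rose at 12 h and 9.73% at 24 h. The 3 read the same gene on the same arrays and are not separate support. The dimmest of them, 1423260_at, read 2.06, 1.78, 1.77, 0.80 and 0.15 in undifferentiated cells, 3.71, 4.66, 2.55, 2.48 and 3.97 at 12 h, and 5.26, 3.55, 4.57, 3.80 and 4.86 at 24 h.

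Id3, a BMP target whose product restrains differentiation in many progenitors, was next. Its arrays read 5.10, 5.36, 4.74, 4.87 and 5.39 in undifferentiated cells, 4.65, 8.34, 7.09, 7.08 and 7.87 at 12 h, and 7.33, 6.36, 6.82, 7.78 and 7.61 at 24 h. The 4.65 of 12 h replicate 1 was under the lowest undifferentiated array, and the other 12 h arrays were above the highest. All 24 h arrays were also above it, as for 9.04% of the tested genes. Means were 5.09 ± 0.29 in undifferentiated cells, 7.00 ± 1.42 at 12 h and 7.18 ± 0.59 at 24 h (SD, n = 5 each). Id3 rose 3.77-fold at 12 h (1.91 ± 0.50 SE, limma adjusted p = 0.0302) and 4.26-fold at 24 h (2.09 ± 0.50, adjusted p = 0.00545). The rise had rank 11 at 12 h and rank 49 at 24 h.

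The 12 h call of Id3 was lost when any 1 undifferentiated array or 12 h replicate 2 or 5 was left out (adjusted p between 0.0514 and 0.0866). Without 12 h replicate 1 the rise was 2.503 (adjusted p = 0.000375). Id3 was 0.18 ± 0.50 higher at 24 h than at 12 h (adjusted p = 0.903), and without that array 0.41 lower (-0.41, adjusted p = 0.457).

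Id1 maintains self-renewal in adult neural stem cells and is a direct BMP target. It read 4.31, 3.70, 4.18, 4.20 and 4.68 in undifferentiated cells, 2.52, 7.37, 6.48, 6.31 and 5.74 at 12 h, and 5.48, 5.27, 5.66, 5.72 and 5.47 at 24 h. The 12 h arrays spanned a range that held all others: 1 was below every undifferentiated array and the other 4 were above every 24 h array. The 24 h arrays all lay above the undifferentiated ones, as for 9.04% of the tested genes, with a spread under that of either other group. Means were 4.21 ± 0.35 in undifferentiated cells, 5.69 ± 1.86 at 12 h and 5.52 ± 0.18 at 24 h (SD, n = 5 each).

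Id1 passed the test at neither time in the fit that shares 1 spread over the 3 groups. The difference was 1.47 ± 0.60 at 12 h (limma adjusted p = 0.133) and 1.31 ± 0.60 at 24 h (adjusted p = 0.109), of rank 33 and rank 193 among all genes. Without 12 h replicate 1 Id1 rose at 12 h by 2.26 (adjusted p = 0.000218) and at 24 h by 1.31 (adjusted p = 0.00108). Fitted on the 24 h and undifferentiated arrays alone, the adjusted p of the 24 h rise was 0.000147. Between 24 h and 12 h the difference was -0.16 ± 0.60 (adjusted p = 0.931), and -0.96 without 12 h replicate 1 (adjusted p = 0.0751).

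Id2 is an early target of BMP signals and its product also binds the retinoblastoma protein. Probe set 1435176_a_at read 6.27, 5.35, 6.20, 5.38 and 5.75 in undifferentiated cells, 4.81, 7.09, 6.22, 7.06 and 7.09 at 12 h, and 6.86, 6.77, 6.79, 7.91 and 7.91 at 24 h. The 12 h arrays overlapped both other groups, and the 24 h arrays were all above the undifferentiated ones, as for 9.04% of the tested genes. Means were 5.79 ± 0.44 in undifferentiated cells, 6.45 ± 0.99 at 12 h and 7.25 ± 0.60 at 24 h (SD, n = 5 each). Id2 rose 2.75-fold at 24 h (1.46 ± 0.40 SE, limma adjusted p = 0.0112). At 12 h it was 0.66 ± 0.40 higher than in undifferentiated cells (adjusted p = 0.306), and without 12 h replicate 1 it rose by 1.07 (adjusted p = 0.0465). With the runs described below as a fixed block, the 24 h difference was 1.15 (adjusted p = 0.0550).

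The 3 Id2 probe sets differed in size of change. At 24 h 1422537_a_at rose by 1.85 ± 0.35 (adjusted p = 0.00198), 1435176_a_at by 1.46 ± 0.40 (adjusted p = 0.0136) and the dim 1453596_at by 0.996 ± 0.30 (adjusted p = 0.0204), as adjusted over the 12556 probe sets that limma tested. Only for 1453596_at did the 24 h and undifferentiated arrays overlap. It read 1.31, 0.76, 1.86, 0.62 and 0.47 in undifferentiated cells, 1.39, 2.39, 1.39, 1.17 and 1.81 at 12 h, and 2.39, 2.46, 2.19, 1.50 and 1.45 at 24 h. At 12 h none of the 3 passed, with differences of 1.10, 0.66 and 0.63 (adjusted p = 0.0760, 0.341 and 0.214). Of the Id2 probe sets only 1435176_a_at had 12 h replicate 1 below all undifferentiated arrays. On 1422537_a_at that array read 5.03, within their 4.69 to 5.85. Over all 8 Id probe sets 4 rose at 12 h, beside 2.45% of all tested probe sets, and 7 rose at 24 h, beside 9.73%. The exception at 24 h was that of Id1.

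**Figure D2:**
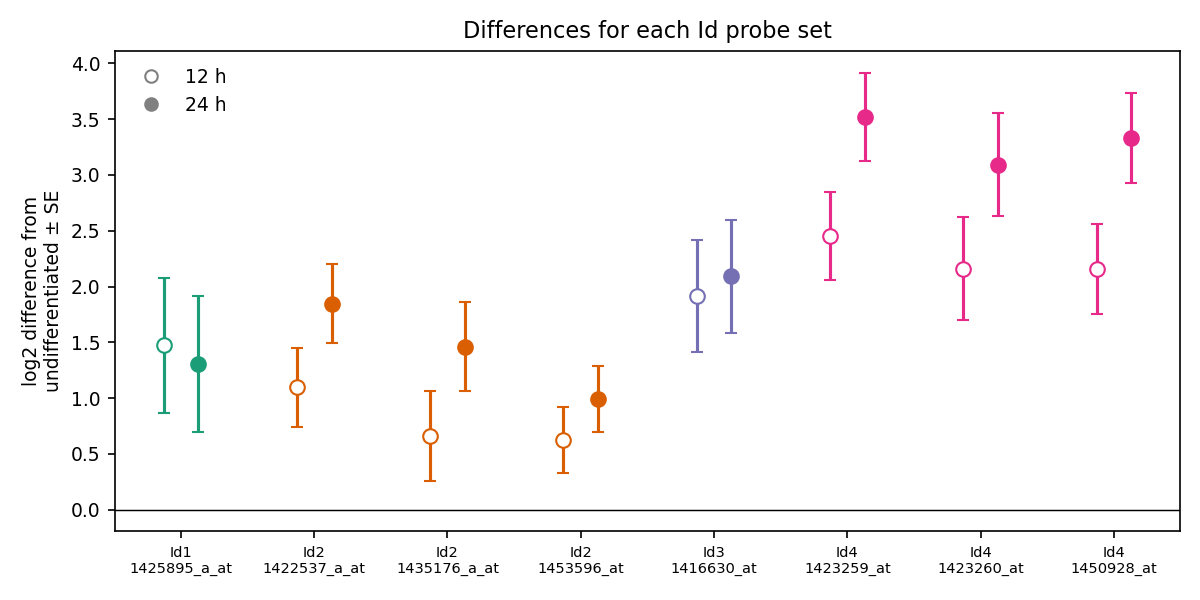
Log2 difference from undifferentiated cells (± SE, limma) at 12 h (open) and 24 h (filled) for each of the 8 Id probe sets. The 3 Id4 probe sets lie between 2.16 and 2.45 at 12 h and between 3.09 and 3.52 at 24 h, above every Id2 probe set at the same time.

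The timing of the paralogs was described by the share of the 24 h difference already present at 12 h. It was 113% for Id1, 91.6% for Id3, 69.7% for Id4 and 45.3% for Id2. The share for Id1 ranged from 80.3% without 12 h replicate 2 to 173.1% without 12 h replicate 1. That for Id3 ranged from 75.6% to 120%, and that for Id2 from 34.5% to 73.4%, with the extremes given by the same arrays left out. For Id4 every leave-one-out value lay between 62.6% and 76.3%.

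Whether a gene's first 12 h of change differed from its second was tested in limma as the early minus the late change. This was 1.64 ± 1.05 for Id1 (adjusted p = 0.739), 1.74 ± 0.86 for Id3 (adjusted p = 0.604), 1.39 ± 0.68 for Id4 (adjusted p = 0.596) and -0.14 ± 0.69 for Id2 (adjusted p = 0.980). By limma 0 of 7909 genes passed this test, with 688 at an unadjusted p under 0.05. Without 12 h replicate 1 Id1 passed, at 3.22 ± 0.45 (adjusted p = 0.00457), and so did Id3, at 2.92 ± 0.53 (adjusted p = 0.0339), among 27 genes higher and 2 lower of 7910. Id2 and Id4 did not pass there, at 0.68 ± 0.53 (adjusted p = 0.849) and 1.36 ± 0.75 (adjusted p = 0.697).

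**Figure D3:**
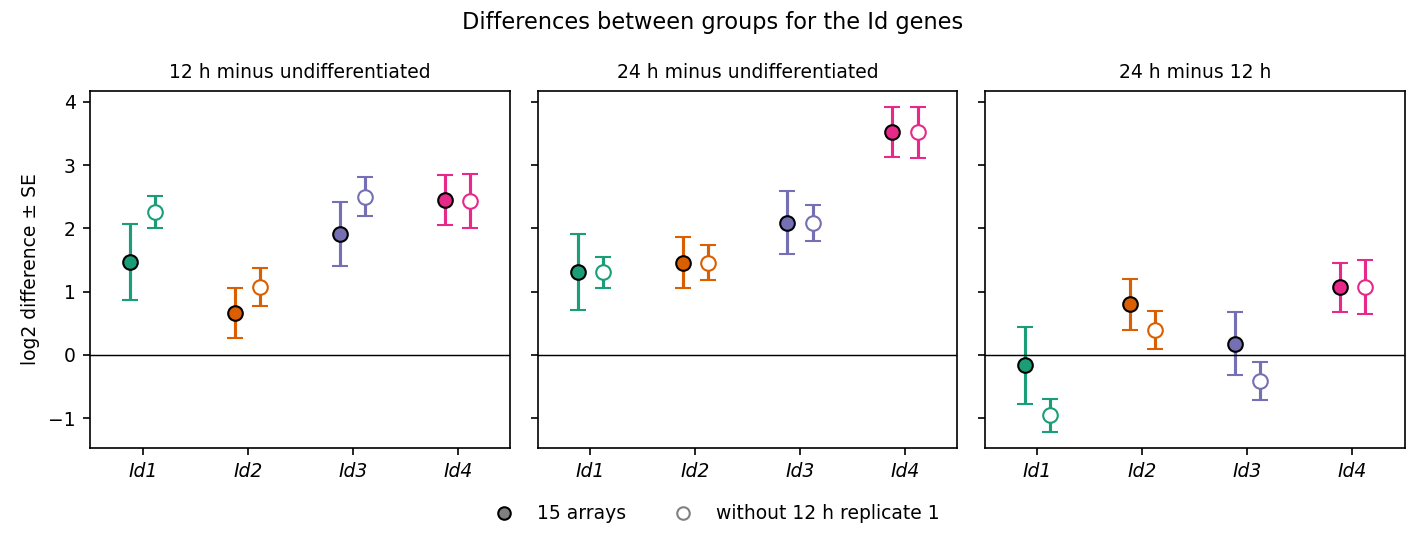
Log2 differences (± SE, limma) of the 4 Id genes at 12 h and at 24 h against undifferentiated cells, and at 24 h against 12 h, over 15 arrays (filled) and without 12 h replicate 1 (open). Id1 and Id3 at 24 h minus 12 h read -0.16 and 0.18 with all arrays and -0.96 and -0.41 without that array, while Id4 reads 1.07 and 1.08.

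Consecutive codes in the titles form 6 runs, of which 4 hold 1 array of each group. The labels do not say what a run is. Within the 4 complete runs Id1 was lower at 24 h than at 12 h each time, by log2 differences of -1.89, -1.21, -0.65 and -0.27. Id3 was also lower each time, by -1.005, -0.73, -0.26 and -0.26. Id4 was higher at 24 h than at 12 h each time, by 0.30, 1.36, 1.80 and 1.03. Id2 had no common direction, at -0.22, 0.56, -0.26 and 0.83. The complete runs leave out 12 h replicate 1, whose run has no 24 h array, so they are not separate from the values without it. No test was made over the 4 runs, and the share of all genes with a common direction in them is not given here. Runs 3 and 4 hold 12 h replicates 3 and 4, the closest arrays of the set. In the fit over all groups, which keeps 12 h replicate 1, Id1 at 24 h against 12 h was 0.013 with these averaged and 0.31 without both. For Id4 that difference was 0.84 and 0.47.

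Against the undifferentiated array of the same run, the 12 h differences in the complete runs were 3.68, 2.30, 2.11 and 1.06 for Id1, 2.98, 2.35, 2.21 and 2.48 for Id3, and 3.22, 0.75, 2.01 and 4.15 for Id4. For Id2 they were 1.74, 0.023, 1.68 and 1.34. In the run of 12 h replicate 1 the difference was -1.79 for Id1, -1.46 for Id2 and -0.46 for Id3, but 2.14 for Id4. The 24 h differences were above 0 for every gene in every complete run, from 0.58 (Id2) to 5.18 (Id4).

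**Figure D4:**
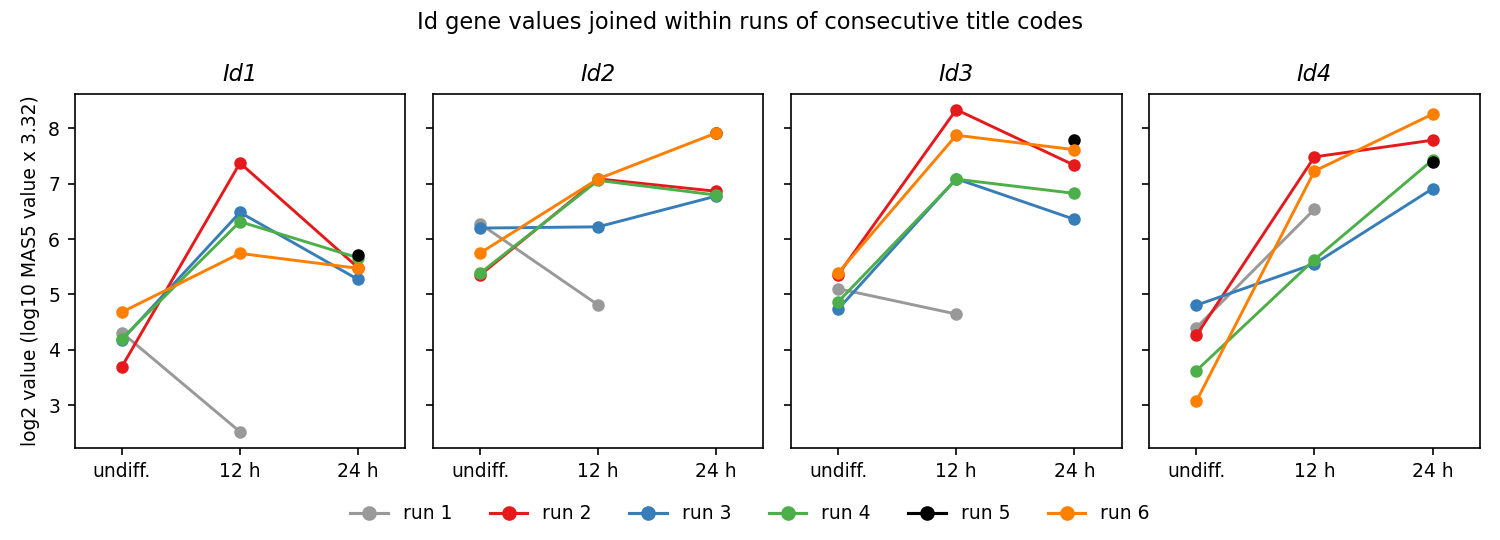
Log2 values of the 4 Id genes in undifferentiated cells and at 12 h and 24 h, with arrays of a run of consecutive title codes joined (run 1 has no 24 h array and run 5 is 1 24 h array). In the 4 complete runs the lines of Id1 and Id3 turn down between 12 h and 24 h, and those of Id4 climb in both steps.

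The sizes of the paralogs' changes were compared directly, with an exact two-sided permutation test on the per-array difference of 2 genes, for 6 pairs and 3 contrasts. With 5 arrays against 5 the smallest possible p is 0.00794. None of the 18 comparisons passed after adjustment over the 18, and 6 had an unadjusted p under 0.05. At 24 h against undifferentiated cells Id4 exceeded Id1 by 2.21 ± 0.47 SE and Id2 by 2.06 ± 0.36 (exact permutation p = 0.00794 and adjusted p = 0.0714 for each). It exceeded Id3 by 1.43 ± 0.43 (exact permutation p = 0.0159, adjusted p = 0.0714). At 12 h Id3 exceeded Id2 by 1.25 ± 0.38 (exact permutation p = 0.0159, adjusted p = 0.0714), and Id4 exceeded Id2 by 1.79 ± 0.60 (exact permutation p = 0.0238, adjusted p = 0.0857).

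Without 12 h replicate 1, 6 of the 18 comparisons passed, each at an exact permutation adjusted p of 0.0476. These were the 3 excesses of Id4 at 24 h, that of Id3 over Id2 at 12 h (1.43), and at 24 h against 12 h those of Id4 over Id1 (2.04) and over Id3 (1.49). The 24 h values themselves do not involve that array, so for those 3 only the adjustment differs. With the mean of all probe sets per gene in place of 1 probe set, 3 comparisons passed.

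The 12 h replicate 1 separated Id4 from the other 3. It deviated from the 12 h mean by -3.16 for Id1, -2.36 for Id3 and -1.64 for Id2, and by 0.052 for Id4. Over all 15 arrays, with group means removed, deviations of Id3 and Id2 had Pearson r = 0.810 (permutation p = 0.00996, adjusted over 6 pairs 0.0598) and Spearman rho = 0.768 (permutation p = 0.00551, adjusted 0.0331). Without the 2 arrays farthest from the median of Id3, r was 0.561, and without 12 h replicate 1 alone it was 0.515. For Id3 and Id1 r was 0.849 (permutation p = 0.0376, adjusted 0.110) and rho was 0.421 (permutation p = 0.152, adjusted 0.258). Without the 2 farthest arrays that r was 0.164, and so rests on them, and without 12 h replicate 1 alone it was 0.338. For Id2 and Id1 r was 0.732 (permutation p = 0.0550, adjusted 0.110) and rho 0.486 (permutation p = 0.0716, adjusted 0.215), with r = 0.457 without the 2 farthest arrays and 0.177 without 12 h replicate 1 alone. The r of Id4 was -0.022 with Id1, 0.320 with Id2 and 0.276 with Id3 (adjusted permutation p = 0.982, 0.563 and 0.656). Without 12 h replicate 1 these were 0.00065, 0.503 and 0.548, so the lower r of Id4 with Id2 and Id3 rests on that array.

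The genes most like each paralog were ranked by Pearson r over the 15 arrays, so differences between the 3 groups, the runs and the actin ratios all enter r. For Id1 they were Cxxc5 (0.918), Pepd (0.916), Cited1 (0.905), Kcna1 (0.892) and Ccn2 (0.882). For Id2 they were Bag1 (0.904), Smap1 (0.895), Pim3 (0.886), Taf13 (0.879) and Bex3 (0.875). For Id3 they were Hspb8 (0.955), Hopx (0.907), Bmpr1a (0.897), Slc25a33 (0.891) and Hcfc1r1 (0.882). For Id4 they were Retreg1 (0.973), Purg (0.972), Il6st (0.972), Xpr1 (0.971) and Kctd5 (0.970). No gene stood on more than 1 of these lists.

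Within the family r was 0.875 for Id1 and Id3, each of which ranked 7 for the other, 0.840 for Id2 and Id3, 0.752 for Id3 and Id4, 0.740 for Id1 and Id2, 0.695 for Id2 and Id4, and 0.463 for Id1 and Id4. These genes were ranked on arrays that include 12 h replicate 1, so their values there are given as a description. In that array Hspb8, a small heat shock protein, read 2.16, against 4.53 or more on the other 12 h arrays and 1.85 to 2.80 in undifferentiated cells. Ccn2, a secreted growth factor-binding protein, read -0.050 there, against 1.72 or more on the other 12 h arrays and 0.30 to 1.44 in undifferentiated cells. Bmpr1a and Hcfc1r1, also ranked for Id3, read 6.17 and 5.06 there, below the other 12 h arrays and above the highest undifferentiated values of 6.04 and 4.78. Retreg1, a receptor for turnover of the endoplasmic reticulum, was instead at its highest 12 h value there, 4.69, and Il6st, the shared receptor chain of interleukin-6 family cytokines, was at its 12 h median, 5.20.

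Of the BMP pathway upstream of the family, Bmp7 fell and Bmp4 rose. Of 12 ligands listed, 10 were on the array and 2 passed the filter. Bmp7 read 2.77 to 3.48 in undifferentiated cells, 0.71 to 1.98 at 12 h and 0.53 to 1.10 at 24 h. It fell by 1.81 at 12 h (limma adjusted p = 0.00124) and by 2.29 at 24 h (adjusted p = 4.89e-05). Among all tested genes 4.56% fell at 12 h and 19.4% at 24 h. Bmp4 read -0.19 to 2.05 in undifferentiated cells, 0.30 to 4.17 at 12 h and 2.69 to 4.30 at 24 h. Its medians were 1.54, 1.67 and 3.88. It rose at 24 h by 2.59 ± 0.61 (adjusted p = 0.00498), beside 12.7% of all tested genes that rose. At 12 h the difference was 0.63 ± 0.61 (adjusted p = 0.546), and the wide range of the 12 h arrays leaves a rise there undecided. A link between these ligands and the Id genes was not tested.

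Of 8 tested BMP receptors and Smads 1 rose at 12 h and 1 at 24 h, in each case Bmpr1a, a type I BMP receptor, and 0 fell. Of all tested genes 3.3% rose at 12 h and 12.7% at 24 h, so that 1 of 8 at 24 h is near the share over all genes. It rose by 0.80 ± 0.19 at 12 h (adjusted p = 0.0200) and by 0.85 ± 0.19 at 24 h (adjusted p = 0.00356). The medians of this list were 0.12 at 12 h and 0.35 at 24 h. The signal-transducing Smad1, Smad5 and Smad4 did not pass at either time, with differences of 0.16, -0.81 and 0.062 at 12 h and 0.46, -1.02 and 0.68 at 24 h. Of 4 extracellular BMP antagonists tested 0 passed at 12 h. At 24 h Nbl1 rose by 0.67 ± 0.23 (adjusted p = 0.0360) and Chrdl1 fell by 0.75 (adjusted p = 0.0265).

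Of 7 other BMP target genes tested 2 rose at 12 h and 3 at 24 h, and 0 fell, beside the 3.3% and 12.7% of all tested genes that rose. The list's median was 0.32 at 12 h and 0.53 at 24 h. Hey1, a repressor of the Hairy family, rose by 1.23 ± 0.20 at 12 h (adjusted p = 0.00408) and 1.09 ± 0.20 at 24 h (adjusted p = 0.00107). Atoh8, a bHLH factor and the only 1 of 4 tested neural bHLH factors to pass, rose at 12 h by 1.03 ± 0.30 (adjusted p = 0.0430) and was 0.76 ± 0.30 higher at 24 h (adjusted p = 0.0608). In 12 h replicate 1 Atoh8 read -0.11, within the -0.16 to 0.19 of undifferentiated cells and under the 0.41 or more of the other 12 h arrays, whereas Hey1 read 4.76, above the highest undifferentiated value of 4.56. Zfp423, a zinc finger cofactor of Smads, rose at 24 h by 1.24 ± 0.38 (adjusted p = 0.0198). Skil, a Smad corepressor, rose at 24 h by 0.53 ± 0.18 (adjusted p = 0.0298).

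All 3 E proteins, the partners that Id proteins bind, passed the filter. Of these 0 passed the test at 12 h, and 1 rose at 24 h, Tcf12, by 0.58 ± 0.16 (limma adjusted p = 0.0106). Of all tested genes 3.3% rose at 12 h and 12.7% at 24 h. Tcf4 differed by 0.54 ± 0.21 at 24 h (adjusted p = 0.0544) and Tcf3 by -0.34 ± 0.23 (adjusted p = 0.273). The list's median was 0.040 at 12 h and 0.54 at 24 h. Of 23 other neural bHLH factors on the array 4 passed the filter, and beside Atoh8 these were Olig1, Olig2 and Bhlhe40, whose 24 h differences were 0.37, 0.063 and -0.82 (adjusted p = 0.332, 0.884 and 0.0708). Hes1, a Notch-driven bHLH repressor, fell by 1.72 at 24 h (adjusted p = 0.000295), the opposite direction to Hey1.

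Genes acting on the stability of Id proteins fell. Usp1, the deubiquitinase that stabilises Id proteins, fell by 1.05 at 12 h (limma adjusted p = 0.0161) and by 1.26 at 24 h (adjusted p = 0.00106). Fzr1 and Cdc20, activators of the ubiquitin ligase that marks Id proteins for degradation, fell at 24 h by 0.61 (adjusted p = 0.0419) and 1.57 (adjusted p = 0.00470). All 3 genes of this list that passed the filter thus fell at 24 h, beside 19.4% of all tested genes that fell at 24 h and 4.56% that fell at 12 h. Of 8 further regulators of Id transcription tested 1 passed, Foxo1, which rose at 24 h by 0.63 ± 0.14 (adjusted p = 0.00418). As 12.7% of all tested genes rose at 24 h, 1 of 8 is near the share over all genes. Egr1, an immediate early factor that drives Id1, differed by -1.08 at 12 h and 0.21 at 24 h (adjusted p = 0.268 and 0.809).

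Of 11 cell cycle partners and genes that Id proteins repress 3 rose and 2 fell at 24 h, while 12.7% of all tested genes rose and 19.4% fell, so the share that fell is near that over all genes. Cdkn1a, an inhibitor of cyclin-dependent kinases that Id proteins repress, fell by 0.96 at 12 h (limma adjusted p = 0.0362) and by 1.53 at 24 h (adjusted p = 0.000827). Cdkn1b, a related inhibitor, rose at 24 h by 0.62 ± 0.15 (adjusted p = 0.00548). Rb1, the retinoblastoma protein bound by Id2, rose at 24 h by 0.51 ± 0.16 (adjusted p = 0.0258), and its relative Rbl1 fell by 1.72 (adjusted p = 0.00221). Thbs1, an inhibitor of vessel growth repressed by Id1, rose at 24 h by 1.13 ± 0.34 (adjusted p = 0.0174). Between 24 h and 12 h 0 tested genes of these pathway lists passed, and all comparisons with undifferentiated cells share the 5 undifferentiated arrays.

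**Figure D5:**
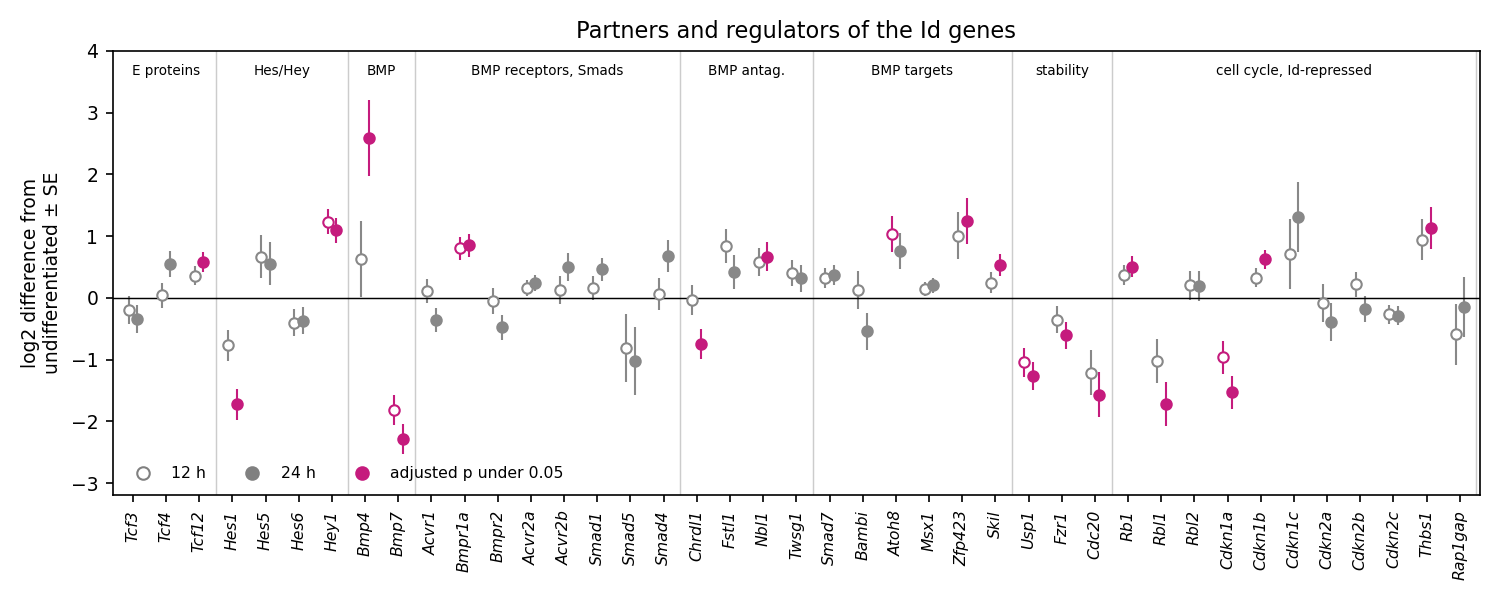
Log2 difference from undifferentiated cells (± SE, limma) at 12 h (open) and 24 h (filled) for the tested genes of 8 lists, coloured where the adjusted p was under 0.05 (Hey1, also a BMP target, is drawn once). Bmp4 reaches 2.59 at 24 h while Bmp7 lies at -1.81 and -2.29, and the E proteins stay between -0.34 and 0.58.

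All 7 markers of neural stem and progenitor cells, the labelled cell type, passed the filter, and their summed level was 10.5 to 11.6 in undifferentiated cells, 10.8 to 11.8 at 12 h and 10.9 to 12.4 at 24 h (log2). Summed levels follow the brightest probe sets of a list and do not measure the amount of a cell type. Here the brightest were Fabp7 and Vim, with means of 10.2 and 9.47 over all arrays, and neither passed the test. Of all tested genes 3.3% rose and 4.56% fell at 12 h, and 12.7% rose and 19.4% fell at 24 h. At 12 h 1 of the 7 stem and progenitor markers rose, Msi1, by 0.91 (limma adjusted p = 0.0230). At 24 h 3 rose, Msi1 by 1.31, Prom1 by 1.03 and Sox2 by 1.03, and 2 fell, Nes by 2.05 and Egfr by 1.08 (adjusted p between 0.000687 and 0.0209). The 2 of 7 that fell are not far from the share over all genes. Of 9 astrocyte markers 3 rose at 12 h, and 6 rose and 1 fell at 24 h, and their summed level was 9.46 to 10.3 in undifferentiated cells, 10.01 to 11.3 at 12 h and 10.5 to 11.7 at 24 h (log2). Of 6 tested oligodendrocyte markers 0 passed at 12 h and 6 rose at 24 h, with a summed level of 7.00 to 8.23 in undifferentiated cells, 7.19 to 10.7 at 12 h and 9.0 to 11.2 at 24 h. Mbp, a myelin protein, was at its lowest of all arrays in 12 h replicate 1, at 2.37, while Gfap, an astrocyte filament, was at the 12 h median of 5.42. Of 6 endothelial markers 0 passed the filter, and of 6 microglial markers 0. The endothelial summed level was 1.998 to 2.11 in undifferentiated cells, 2.02 to 2.08 at 12 h and 1.99 to 2.12 at 24 h. Of 2 tested ependymal markers 1 rose at 12 h, Foxj1, by 0.96 (adjusted p = 0.0308), and both rose at 24 h, Foxj1 by 1.51 and Rsph1 by 0.34. Of 4 tested neuronal markers 0 passed at 12 h and 2 rose at 24 h, Dcx by 1.69 and Tubb3 by 0.67. Of 2 tested pericyte and fibroblast markers 0 passed at 12 h and 1 rose at 24 h, Pdgfrb, by 1.97 against undifferentiated cells (adjusted p = 7.96e-05) and by 1.29 against 12 h (adjusted p = 0.0311). The summed levels in undifferentiated cells, at 12 h and at 24 h were 2.91 to 3.27, 3.25 to 4.16 and 3.603 to 4.60 for the ependymal list, 2.99 to 4.07, 3.77 to 4.22 and 3.80 to 4.32 for the neuronal list, and 3.53 to 4.09, 2.93 to 3.90 and 3.48 to 3.88 for the pericyte and fibroblast list. The part of cell composition in the Id changes was not tested.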

How the data were processed

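Total RNA of 15 samples was measured on 3' expression arrays. The deposited values are log10 of MAS5 signals, MAS5 per the submitters' processing notes. The log base is not given in the sources used here and was taken from the hybridisation spike-ins, whose log10 values rose with a slope of 1.07 ± 0.0655 (SD, 15 arrays) per expected decade. Values were multiplied by 3.32 to give log2. Array medians were 0.287 to 0.453 on the log10 scale, and no further normalisation was made. MAS5 values carry no counts, so precision is limited by the 5 arrays of each group.

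Of 22690 probe sets 22626 were not controls, of which 20380 had 1 gene symbol in the platform annotation, 691 several and 1555 none. Each gene was represented by its probe set of highest mean. Genes above the 40th percentile of probe set means (log2 0.51) were kept, 7909 of 12393. Groups came from the titles. Differences were tested with limma 3.58.1 in R 4.3.3 (lmFit, eBayes with trend, all 15 arrays) and Benjamini-Hochberg adjustment over all tested genes, a procedure also tested on simulated data. Pairs of Id genes were compared by exact permutation tests (252 splits), and correlations by 100000 permutations within groups.

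The members, gene lists and tests were chosen with earlier results of these data known. All Id probe sets are named, with the 5 genes of highest Pearson r for each Id gene and, from each gene list members that passed could be named (at most 6 of longer lists), as could some cell type markers that passed, and a few members that did not pass were named after their values were seen. Alternatives changed the grouping, pseudocount, filter, normalisation, probe set rule, variance model, blocks, covariate and arrays included. Protein sequences are not used here.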

Additional observations from a re-analysis of the deposited data

Results flagged for a closer look

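Of 24 groups of 5 arrays (8 probe sets in 3 groups), 1 held an array far from the others. For Id2 probe set 1422537_a_at the 24 h replicate 4 read 7.73 on the log2 scale, against 6.79 to 7.04 on the other 24 h arrays. Chance flags about 1 in 20 groups. The 12 h replicate 1 was lowest of its group for Id1, Id3 and Id2 probe sets 1435176_a_at and 1422537_a_at, but not for 1453596_at. It did not meet the same criterion.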

How the results depend on the processing

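Settings other than single runs and suffixes gave 248 differences of Id genes from undifferentiated cells, and 248 of 248 were above 0. These settings refit the same arrays, so the common sign is not separate support. Some differences were smaller than their SE, such as Id4 at 12 h by file codes (0.24 ± 0.996 SE) and Id2 at 12 h with the actin covariate (0.051 ± 0.46). Within run 1, outside that count, the 12 h differences were -1.79 for Id1, -1.46 for Id2, -0.46 for Id3 and 2.14 for Id4. Grouped by array file codes 0 Id genes passed at 12 h and 0 at 24 h, as for all 7909 genes in limma (81 and 118 genes at an unadjusted p under 0.05). The differences were then 1.17 for Id3 and 0.24 for Id4 at 12 h, and 0.48 for Id2, 1.08 for Id3 and 0.55 for Id4 at 24 h. Those at 24 h against 12 h were 0.13 for Id1 and -0.088 for Id3, and the early minus late change was 0.20 for Id2 and -0.078 for Id4. Among pairs under file codes the difference of changes was -0.40 (Id2 minus Id1, 24 h), -0.51 and -0.33 (Id4 minus Id1, 12 h and 24 h), -0.098 (Id4 minus Id2, 12 h), -0.93 and -0.52 (Id4 minus Id3, 12 h and 24 h) and -0.22 (Id3 minus Id1, 24 h against 12 h).

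With the actin ratio as a covariate 0 Id genes passed at either time, among 59 genes of 7909 at 12 h and 13 at 24 h (12 h Id3 1.70 and Id4 2.32, 24 h Id2 0.35, Id3 1.70 and Id4 3.28). Without the arrays of title suffix C 1 passed at 12 h and 1 at 24 h, both Id4 (12 h Id3 1.77, 24 h Id2 1.01 and Id3 1.82). Of all 7887 genes tested there 65 passed at 12 h and 1114 at 24 h, against 622 and 2536 of 7909 with all arrays. With only the groups compared in the fit, 1 passed at 12 h, Id4, among 404 genes of 7909. There Id3 at 1.91 did not pass (limma adjusted p = 0.0628). Id1 at 24 h passed at 1.31, among 2741 genes of 7909. With runs as a fixed block Id2 at 24 h was 1.15 and Id3 at 24 h against 12 h was -0.27. The correlation estimated for runs as a random block was 0.291. Within run 1 Id3 at 12 h was -0.46. The early minus late change of Id2, -0.14 and not called, became 0.033 with quantile normalisation, 0.16 with the mean of probe sets, 0.022 with the suffix as a block and 0.17 with runs fixed. With 12 h arrays 3 and 4 averaged, Id1 at 24 h against 12 h was 0.013, and 0.31 without both. With the mean of probe sets 3 of the 18 pair comparisons passed. The cause of these changes was not tested.

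Leaving out 1 array at a time, the number of Id genes that passed was 1 to 4 at 12 h, and 0 to 2 for the early minus late change. Over all tested genes the number at 12 h ran from 174 without 12 h replicate 2 to 1004 without 12 h replicate 3. Without 12 h replicate 1, which gave the 4 and the 2 Id genes, 464 and 29 genes of 7910 passed. At 12 h Id1 ran from 1.05 to 2.26, Id2 from 0.50 to 1.07 and Id3 from 1.58 to 2.503, in each case lowest without 12 h replicate 2 and highest without 12 h replicate 1. At 24 h Id1 ran from 1.18 to 1.42. Against 12 h, Id1 at 24 h ran from -0.96 to 0.26 and Id3 from -0.41 to 0.51. The early minus late change ran from 0.79 to 3.22 for Id1, from -0.45 to 0.68 for Id2 and from 1.07 to 2.92 for Id3. Between 0 and 6 pair comparisons passed, with Id2 minus Id1 at 24 h from -0.024 to 0.30, Id4 minus Id2 at 24 h against 12 h from -0.097 to 0.69, and Id4 minus Id3 at 12 h from -0.063 to 0.82. The labels number no replicates, so arrays were joined across groups by run and by title suffix only. The Id2 probe set 1453596_at averaged 1.004 in undifferentiated cells, near the filter level of 0.51, which limits how well its change can be measured.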
